A study of Homo sapiens with 9 samples.

Results

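CXCL1, CXCL5 and CXCL8 are secreted chemokines that draw neutrophils out of the blood. They were taken from the deposited table by their symbols, which gave 3 of 6819 genes and 3 of 20909 transcripts, 1 transcript each: NM_001511 for CXCL1, NM_002994 for CXCL5 and NM_001354840 for CXCL8. The sum over a gene's transcripts therefore equals its single transcript in all 3. No level of the other RefSeq transcript of CXCL8, NM_000584, was analysed here, so the CXCL8 values describe 1 of its transcripts and not the gene. The genes were chosen because their levels in both knockdown groups lay above the controls, so those differences are given as sizes with errors and without a test.

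RNA of Caki-1, a human clear cell renal carcinoma line, was sequenced in 9 libraries. The control group (labelled WT, with NC in the library titles) has 3 libraries. The titles do not say whether the controls carried a hairpin. The 2 groups labelled as TAF1D knockdowns by short hairpin RNA, named SH1 and SH3, have 3 each. The labels do not explain these names, give no hairpin sequence or time point, and do not say whether libraries came from separate cultures, so the spread between libraries may be technical. TAF1D, a subunit of the factor that recruits RNA polymerase I, was not analysed here, and the knockdown could not be checked on its target.

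Chemokines of this family carry a glutamate-leucine-arginine motif ahead of their first cysteines and signal through the receptors CXCR1 and CXCR2 on neutrophils. Their genes sit together on the long arm of chromosome 4 and are textbook targets of NF-kB, which binds a short site close to their transcription starts. The mRNAs are short-lived and carry AU-rich elements that destabilising proteins recognise. In kidney cancer, tumour cells can make these chemokines themselves, and CXCL8 is known as an angiogenic factor as well.

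Estimated counts of all listed transcripts added up to 1358215 to 1596467 per library, 4.20% to 5.18% of all TPM, so they are part of a library. The table is itself a selection. All 8571 transcripts with a count above 0 in both control 1 and SH1 1 differed at least 2-fold in estimated count between these libraries. The ratio of SH1 1 to control 1 was 2.12 for CXCL1, close to that limit, 2.95 for CXCL8 and 3.67 for CXCL5. Which transcripts are listed thus depends on these libraries, and values of the chemokines are also given for the other 7 libraries. RNA came from whole cultures, so more expressing cells and more RNA per cell cannot be told apart.

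The promoters are shown because the 3 genes share a sequence there that the choice of genes did not use. Each window runs from 250 bases before the annotated start to 50 after it (RefSeq, GRCh38.p14): CXCL1 at chr4:73869143-73869442 on the plus strand, CXCL5 at chr4:73998628-73998927 on the minus strand and CXCL8 at chr4:73740319-73740618 on the plus strand. Capitals mark the NF-kB-type letters GGAATTTCC. The sequences read 5′ to 3′ along the gene.
CXCL1: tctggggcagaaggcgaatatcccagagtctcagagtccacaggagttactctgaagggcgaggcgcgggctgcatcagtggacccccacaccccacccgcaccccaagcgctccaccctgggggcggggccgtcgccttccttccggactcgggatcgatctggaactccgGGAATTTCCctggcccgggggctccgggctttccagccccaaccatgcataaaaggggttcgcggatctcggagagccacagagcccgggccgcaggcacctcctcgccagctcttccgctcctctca
CXCL5: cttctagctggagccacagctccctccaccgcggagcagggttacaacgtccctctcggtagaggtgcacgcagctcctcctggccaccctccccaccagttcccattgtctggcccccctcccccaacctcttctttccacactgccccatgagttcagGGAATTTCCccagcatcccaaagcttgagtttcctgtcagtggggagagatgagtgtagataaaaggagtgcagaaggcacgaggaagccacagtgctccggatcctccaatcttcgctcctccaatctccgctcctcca
CXCL8: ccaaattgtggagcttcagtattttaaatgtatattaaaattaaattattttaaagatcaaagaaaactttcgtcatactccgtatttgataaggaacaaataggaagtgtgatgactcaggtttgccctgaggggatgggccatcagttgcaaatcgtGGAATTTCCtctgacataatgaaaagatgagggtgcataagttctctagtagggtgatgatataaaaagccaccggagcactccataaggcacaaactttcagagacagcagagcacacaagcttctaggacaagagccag

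These 9 letters begin 78 bases before the start in CXCL1, 90 in CXCL5 and 91 in CXCL8. Searched on both strands, they occur in 162 of 35116 promoter windows of this length, or 0.461%. The promoter of CXCL6, a further family member in the table, holds them too, 89 bases before its start. A TATA-like run, ATAAAA, begins 30, 31 and 30 bases before the starts of CXCL1, CXCL5 and CXCL8 and occurs in 16.0% of windows. The AP-1 letters TGANTCA were found in CXCL8, 137 bases before the start, and occur in 7.71% of windows. In CXCL1, CXCL5 and CXCL6 the AP-1 letters are not in the window, and in CXCL6 the TATA-like run is not. The motifs do not overlap each other. The NF-kB letters were chosen after the promoters had been read, and a match is a description of the letters, not a measured binding site.

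**Figure D1:**
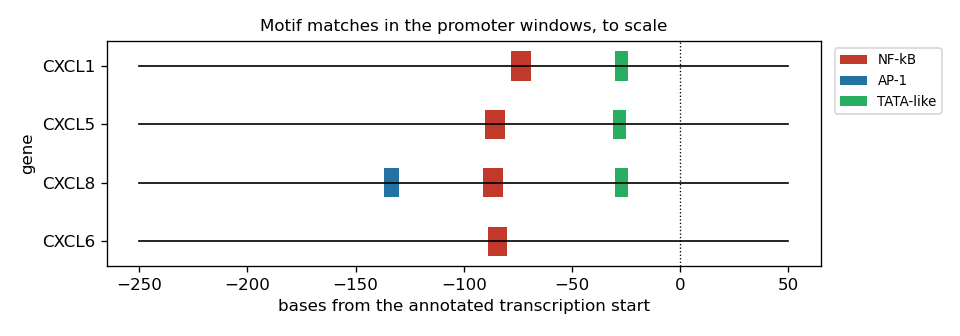
Positions of 3 motifs in the promoter windows of CXCL1, CXCL5, CXCL8 and CXCL6, in bases from the annotated transcription start (x axis), with 1 line per gene. Red boxes mark the NF-kB-type letters, which begin 78 to 91 bases before the start in all 4 genes, blue the AP-1 letters and green the TATA-like run.

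The mRNAs share a second feature. The AU-rich pentamer ATTTA occurs 5 times in the annotated CXCL1 transcript (1097 bases), 11 times in that of CXCL5 (2538 bases) and 10 times in NM_000584, the annotated transcript used here for CXCL8 (1705 bases). Per kilobase that is 4.56, 4.33 and 5.87 pentamers, against a median of 0.923 over 19005 genes (GENCODE 29, longest transcript with a RefSeq match). A density at least as high was found in 1.02%, 1.34% and 0.226% of genes. As many pentamers per transcript, whatever its length, were found in 34.9%, 14.2% and 16.3% of genes. CXCL6 had 6 in 1718 bases, or 3.49 per kilobase, a density that 4.05% of genes reach.

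CXCL1 was the most abundant of the 3. FPKM was 204, 207 and 183 in controls 1 to 3, 435, 406 and 390 in SH1 1 to 3, and 358, 343 and 332 in SH3 1 to 3. All 6 knockdown libraries lay above all 3 controls, and the SH3 libraries lay below the SH1 libraries. Group means were 198 ± 13.3 in control, 410 ± 22.6 in SH1 and 345 ± 13.0 in SH3 (SD, n = 3). Among the 6819 listed genes CXCL1 ranked first by FPKM in the 3 SH1 libraries and second in the other 6.

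Fitted on the counts, CXCL1 was higher than control by 0.89 ± 0.10 (log2 ± SE) in SH1 and by 0.72 ± 0.10 in SH3, or 1.85-fold and 1.65-fold. The ratio of mean FPKM was 2.07 for SH1 and 1.74 for SH3. FPKM is scaled by the authors, while the fit scales by the listed transcripts alone. In the other 7 libraries the fitted values were 0.89 ± 0.11 and 0.71 ± 0.11. The size in CXCL1 was therefore nearly the same without the libraries that decided which transcripts are listed.

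CXCL5, which epithelial cells make under inflammatory stimulation, was the least abundant. FPKM was 2.92, 1.33 and 1.61 in controls 1 to 3, 10.8, 9.10 and 6.64 in SH1 1 to 3, and 6.44, 5.54 and 4.73 in SH3 1 to 3. Each knockdown library again lay above each control, and each SH3 library below each SH1 library. Group means were 1.95 ± 0.849, 8.83 ± 2.07 and 5.57 ± 0.855 (SD, n = 3). The estimated counts behind them ran from 63.4 in control 2 to 499 in SH1 1. Counting error at the lowest count was 12.6%, below the spread of 43.5% between the controls.

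CXCL5 had the largest fitted differences of the 3, 2.03 ± 0.34 in SH1 and 1.45 ± 0.33 in SH3 (4.10-fold and 2.74-fold). In the other 7 libraries they were larger, 2.29 ± 0.31 and 1.81 ± 0.29 (4.89-fold and 3.51-fold). Control 1, which these leave out, held the highest control value. Over the 9 pairings of 1 SH3 with 1 control library, the FPKM ratio ran from 1.62 to 4.84.

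CXCL8, also called interleukin 8, varied most between libraries of 1 group. FPKM of its listed transcript was 15.8, 5.09 and 8.63 in controls 1 to 3, 46.9, 27.7 and 15.2 in SH1 1 to 3, and 21.1, 19.2 and 15.1 in SH3 1 to 3. Control 1 lay above SH1 3 and SH3 3, so the groups overlapped in both comparisons. Group means were 9.85 ± 5.47, 29.96 ± 15.97 and 18.4 ± 3.06 (SD, n = 3). The SD was 55.5% of the mean in control and 53.3% in SH1, against 16.6% in SH3.

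The fitted difference of CXCL8 from control was 1.46 ± 0.47 in SH1 and 0.85 ± 0.46 in SH3 (2.76-fold and 1.81-fold). In SH3, 2 SE either side reached from -0.08 to 1.78 and so included 0. The values in the other 7 libraries were 1.52 ± 0.38 and 1.32 ± 0.36. Leaving out single libraries moved the SH1 value between 1.08 (without SH1 1) and 1.92 (without control 1), and the SH3 value between 0.57 (without control 2) and 1.31 (without control 1).

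**Figure D2:**
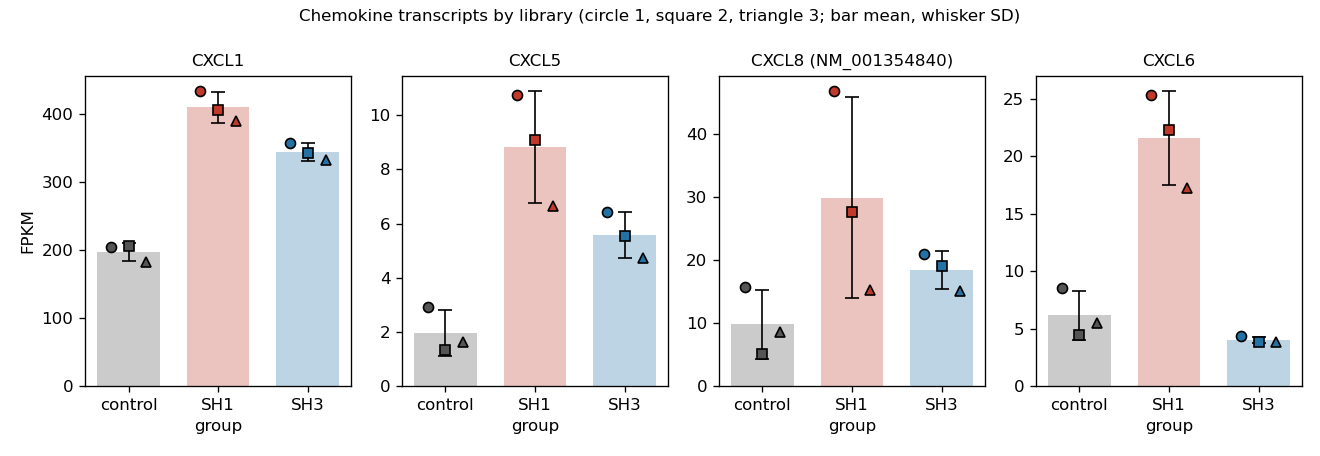
FPKM (y axis, from 0, a separate scale per gene) of CXCL1, CXCL5, the listed CXCL8 transcript and CXCL6 in control, SH1 and SH3. Circles, squares and triangles are libraries 1, 2 and 3, bars are means and whiskers SD (n = 3). CXCL1 and CXCL5 have every knockdown library above every control, CXCL8 has control 1 among the knockdown values, and CXCL6 is high in SH1 alone.

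In 2 of the 3 genes, CXCL1 and CXCL5, the libraries of SH1 did not overlap with the controls, and the same 2 did not overlap in SH3. Of all 6398 tested genes 12.9% lay wholly above the controls in SH1, 10.2% in SH3 and 4.08% in both groups. The genes were chosen on these comparisons, so nothing is read from the counts. For the average of both knockdown groups against control, the differences were 0.80 ± 0.09 for CXCL1, 1.74 ± 0.31 for CXCL5 and 1.16 ± 0.42 for CXCL8. In the other 7 libraries they were 0.80 ± 0.10, 2.05 ± 0.28 and 1.42 ± 0.34. The comparisons of SH1 and of SH3 with control use the same 3 controls, and a low or high control moves them together.

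The direct comparison of SH3 with SH1 uses no control library for its means and was tested, though it shares libraries with the comparisons above. It asks whether the groups differ in these chemokines. CXCL1 had a log2 difference of -0.17 ± 0.10 (adjusted p = 0.624, edgeR quasi-likelihood test with Benjamini-Hochberg adjustment over all genes). CXCL5 had -0.58 ± 0.32 (adjusted p = 0.622) and CXCL8 -0.61 ± 0.46 (adjusted p = 0.836). The differences in the other 7 libraries were -0.18, -0.48 and -0.20 (adjusted p = 0.592, 0.583 and 0.973). The CXCL8 difference was -0.20 without SH1 1 (adjusted p = 1) and -0.92 without SH1 3 (adjusted p = 0.626). None of the 3 passed, at a background of 1.36% of all genes called in this comparison. With 2 SE either side, the differences reached from -0.36 to 0.02 for CXCL1, from -1.23 to 0.07 for CXCL5 and from -1.53 to 0.31 for CXCL8. A difference of up to those sizes is therefore compatible with the libraries. By FPKM, SH3 lay wholly below SH1 for CXCL1 and CXCL5, as did 12.6% of all tested genes.

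**Figure D3:**
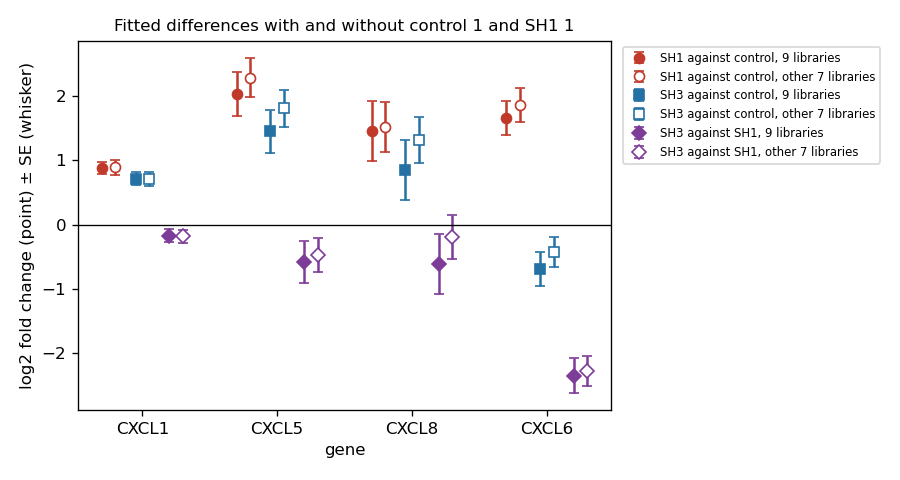
Fitted log2 fold changes (y axis) of CXCL1, CXCL5, CXCL8 and CXCL6 for SH1 against control (red circles), SH3 against control (blue squares) and SH3 against SH1 (purple diamonds), with SE as whiskers. Filled symbols use all 9 libraries and open ones leave out control 1 and SH1 1. The red and blue symbols of CXCL1, CXCL5 and CXCL8 lie above 0, while CXCL6 has a blue symbol below 0 at -0.69 and a purple one at -2.35.

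The 3 genes were not present in a fixed ratio. CXCL1 FPKM was 69.9 to 155 times that of CXCL5 in the control libraries, 40.4 to 58.7 times in SH1 and 55.6 to 70.2 times in SH3. The ratio of CXCL8 to CXCL5 was 3.83 to 5.42 in control, 2.29 to 4.36 in SH1 and 3.18 to 3.46 in SH3. CXCL5 and CXCL8 ordered the libraries the same way in 3 of 3 groups. Their deviations from the group means in log2 FPKM had a Pearson correlation of 0.95 over the 9 libraries, given as a description without a test. For CXCL1 the same correlation was 0.50 with CXCL5 and 0.44 with CXCL8, and its own spread was small, with an SD of 3.78% to 6.71% of the group mean.

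**Figure D4:**
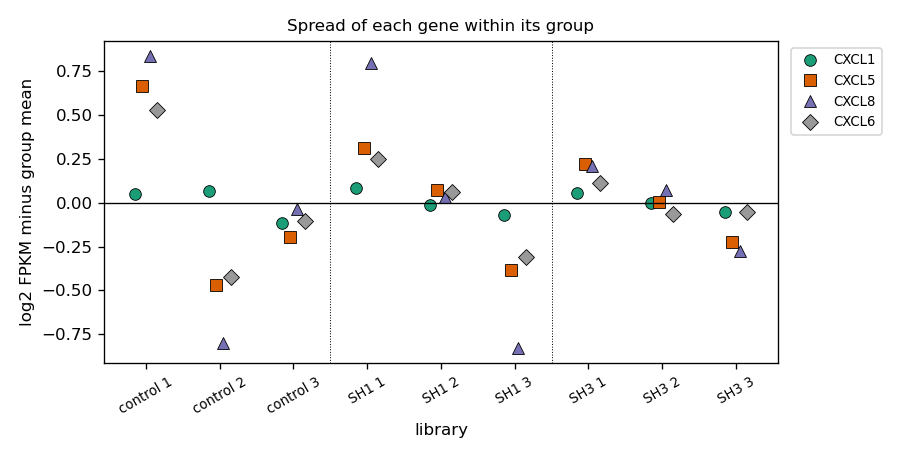
Log2 FPKM of CXCL1, CXCL5, CXCL8 and CXCL6 minus the mean of the library's own group (y axis) in each of the 9 libraries (x axis). CXCL5, CXCL8 and CXCL6 lie on the same side of 0 in all control and SH1 libraries, with control 1 high and control 2 low, while CXCL1 stays close to 0 throughout.

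CXCL6, a close relative of CXCL5 that also signals through CXCR1 and CXCR2, was the sole further one of 8 family and receptor genes in the table. The 34 chemokines and receptors of other families were not analysed here. FPKM was 8.55, 4.41 and 5.52 in controls 1 to 3, 25.3, 22.3 and 17.2 in SH1, and 4.32, 3.82 and 3.85 in SH3. SH1 lay wholly above the controls and SH3 wholly below them, as 7.13% of all tested genes did in SH3. CXCL6 rose in SH1 by 1.66 ± 0.27 (adjusted p = 0.0219, edgeR) and had -0.69 ± 0.27 in SH3 (adjusted p = 0.533), or -0.42 ± 0.23 in the other 7 libraries. It was lower in SH3 than in SH1 by -2.35 ± 0.28 (adjusted p = 0.00663), a comparison in which CXCL5 had -0.58. The difference between CXCL6 and CXCL5 in this respect was not tested. The ratio of CXCL6 to CXCL5 was 2.93 to 3.43 in control, 2.36 to 2.60 in SH1 and 0.671 to 0.814 in SH3.

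The rise of CXCL6 in SH1 lost its call without control 2 (adjusted p = 0.0648), control 3 (0.0955), SH1 1 (0.0708), SH1 2 (0.0982), SH3 1 (0.0513) or SH3 3 (0.0505) and in the other 7 libraries (0.0518), with only the groups compared (0.0926) and on single transcripts (0.532), with a log2 fold change of 1.51 to 1.92 throughout. The lower level in SH3 than in SH1 kept its call when any 1 library was left out and in the other 7 (adjusted p = 0.0213), but not when single transcripts were tested (adjusted p = 0.338), although CXCL6 has 1 transcript.

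On chromosome 4 the order of protein-coding genes (RefSeq, GRCh38.p14) runs CXCL8, CXCL6, PF4V1, CXCL1, PF4, PPBP, CXCL5, CXCL3, CXCL2, MTHFD2L, EPGN and EREG. Of these, CXCL8, CXCL6, CXCL1, CXCL5, MTHFD2L and EREG are in the table, and the others were not analysed here. EREG, an EGF receptor ligand, had a mean of 1.32 ± 0.295 FPKM in control, 7.45 ± 1.68 in SH1 and 9.88 ± 0.910 in SH3. MTHFD2L, a mitochondrial folate enzyme between the chemokines and EREG, stayed under 1 FPKM, at 0.357 ± 0.136, 0.783 ± 0.170 and 0.450 ± 0.416 (SD, n = 3). RASSF6, the protein-coding gene directly ahead of CXCL8, is in the table as well. It was at 0.0533 ± 0.0611 FPKM in control, 0 ± 0 in SH1 and 0.103 ± 0.111 in SH3. Beyond EREG, RCHY1 and THAP6 are in the table too, and their levels are not given here. EREG, MTHFD2L and RASSF6 were named after their values were seen.

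The wider pathway was followed in lists of 198 other genes, of which 84 are in the table and 80 passed the filter on low counts. In SH1 7 of the 80 were higher and 0 lower (8.75%, against 1.06% of all genes called higher and 2.14% in either direction), and their median log2 fold change was 0.40 against -0.03 over all genes. In SH3 3 were higher and 0 lower (3.75% against 0.297% higher and 0.406% in either direction), with a median of 0.17 against -0.03. In SH3 against SH1 0 were higher and 2 lower (2.5% against 0.578% lower), with a median of -0.26 against 0.00. In the average of both groups against control 5 were higher and 0 lower (6.25% against 0.625% higher and 1.11% in either direction). They were EGR1, TNIP1, CSF3, HMOX1 and C3. C3 was called in SH1 but not in SH3 (-0.34 ± 0.20, adjusted p = 0.744), and its call in the average was lost without control 2 or 3, SH1 2 or any 1 SH3 library (adjusted p 0.0685 to 0.0926). That of HMOX1 was lost without control 3, SH1 2, SH3 1 or SH3 2 (0.0529 to 0.0605), and that of EGR1 in the other 7 libraries (0.0503). The lists hold genes already known to move in these data, so the counts are no independent evidence. In the other 7 libraries 4, 2, 3 and 3 were called for SH1, SH3, the average and SH3 against SH1, beside 0.895%, 0.11%, 0.33% and 0.88% of all genes. DESeq2 called 14, 7, 14 and 11, beside 7.19%, 4.03%, 5.63% and 6.35% of all genes. With edgeR on single transcripts, 4, 3, 5 and 1 pathway genes had a called transcript. Of all 17495 transcripts 0.131%, 0.0286%, 0.12% and 0.0972% were called. These shares count transcripts and not genes, so they are not a like background. The numbers of all genes called this way are given at the end. In the main test the count of pathway genes in SH1 was 4 without control 2 and 3 without SH1 2. That for the average was 3 or 2 without control 2, control 3, SH1 2 or any 1 SH3 library.

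Upstream of the chemokines, cytokines and receptors that induce them had 13 tested genes and 0 called in SH1, SH3 or SH3 against SH1, with 1, 1 and 3 at an unadjusted p under 0.05 in edgeR, which 11.5%, 8.39% and 10.8% of all genes had. The most abundant were IL1RAP, the co-receptor of interleukin 1, at 7.74 ± 2.003 FPKM in control, 7.28 ± 0.917 in SH1 and 5.29 ± 0.380 in SH3, and IL17RA, a receptor chain for interleukin 17, at 6.07 ± 0.784, 5.84 ± 0.583 and 5.37 ± 0.378. IL18 was at 4.13 ± 3.95, 3.06 ± 2.74 and 10.01 ± 1.15, and IL17RC at 2.78 ± 0.905, 4.82 ± 0.155 and 3.96 ± 0.292.

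Of 29 tested genes listed under the signal relay to NF-kB and AP-1, 1 rose in SH1 and the same 1 in SH3. Of all genes 1.06% and 0.297% were called higher. No adaptor, kinase or subunit of NF-kB or AP-1 in the list was called in either group. The gene that rose was EGR1, an immediate early transcription factor, from 23.4 ± 3.92 FPKM to 100 ± 24.3 and 110 ± 17.1. Its differences were 1.94 ± 0.22 (adjusted p = 0.0037, edgeR) and 2.15 ± 0.22 (adjusted p = 0.00825). In the other 7 libraries these adjusted p were 0.0518 and 0.0986. NFKB2, an NF-kB subunit, was the next most abundant, at 17.4 ± 8.32 FPKM in control, 18.7 ± 8.84 in SH1 and 16.6 ± 4.03 in SH3. IKBKB, the kinase that releases NF-kB, was at 6.26 ± 4.47, 7.49 ± 2.71 and 6.81 ± 0.613, and the adaptor MYD88 at 3.82 ± 3.30, 4.75 ± 2.96 and 7.44 ± 1.34.

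Of 10 tested brakes on NF-kB 1 rose in SH1 (1.06% of all genes called higher) and 0 in SH3. It was TNIP1, which binds the deubiquitinase TNFAIP3 and went from 20.9 ± 6.58 to 65.3 ± 3.81 FPKM (1.52 ± 0.22, adjusted p = 0.013). In SH3 it was at 33.8 ± 4.01 (0.67 ± 0.21, adjusted p = 0.415). Without control 3 or SH1 2 the adjusted p in SH1 was 0.0593 and 0.0561, with only the groups compared 0.0823 and on single transcripts 0.0555. The rise in the average (1.10, adjusted p = 0.0497) was lost in 14 of 19 alternatives. TNFAIP3 itself was at 2.08 ± 0.505 FPKM in control, 4.39 ± 1.51 in SH1 and 5.18 ± 1.32 in SH3, SOCS3 at 5.54 ± 1.74, 11.2 ± 2.47 and 8.31 ± 2.03, and the ubiquitin ligase ITCH at 9.80 ± 1.35, 19.0 ± 4.44 and 8.92 ± 3.34. Neither TNFAIP3, SOCS3 nor ITCH passed. At an unadjusted p under 0.05 in edgeR were 5 of the 10 brakes in SH1, 3 in SH3 and 3 in SH3 against SH1. Of all genes 11.5%, 8.39% and 10.8% were.

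Of 12 tested genes listed for chemokine mRNA stability, 0 were called in SH1, SH3 or SH3 against SH1. The list is not limited to genes that act on AU-rich elements. At an unadjusted p under 0.05 in edgeR were 2, 2 and 1 (all genes, 11.5%, 8.39% and 10.8%). ZC3H12A, a nuclease of cytokine mRNAs, was at 4.96 ± 0.996 FPKM in control, 8.55 ± 0.548 in SH1 and 8.09 ± 0.325 in SH3 (0.61 ± 0.22, adjusted p = 0.35, in SH1, and 0.61 ± 0.22, adjusted p = 0.492, in SH3). The deadenylase PARN was at 13.0 ± 6.52, 7.08 ± 3.78 and 21.2 ± 3.61, the RNA-binding protein gene TIA1 at 7.54 ± 1.52, 6.57 ± 0.718 and 5.12 ± 0.861, and KHSRP, a decay factor, at 2.92 ± 5.06, 7.65 ± 4.02 and 4.09 ± 2.15. Proteoglycan carriers and trimming proteases had 5 tested genes and 0 called in SH1, SH3 or SH3 against SH1, with 0, 0 and 1 at an unadjusted p under 0.05, beside the same shares of all genes. Syndecan 1 (SDC1), a cell surface carrier of chemokines, was at 12.8 ± 8.36, 16.9 ± 6.02 and 22.0 ± 1.004. In the same order of groups EXT2 was at 9.33 ± 6.45, 9.97 ± 4.755 and 4.95 ± 4.21. SDC3 was at 0.907 ± 0.555, 2.59 ± 3.09 and 0.353 ± 0.00577, and SDC4 at 0.323 ± 0.56, 4.49 ± 7.78 and 1.70 ± 1.75.

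Other neutrophil and acute phase factors had 10 tested genes, of which 4 rose in SH1 (1.06% of all genes called higher) and 2 in SH3 (0.297% of all genes). CSF3, which drives neutrophil production, rose in both, from 77.7 ± 6.20 FPKM to 249 ± 16.5 in SH1 (1.52 ± 0.10, adjusted p = 0.000413) and 269 ± 16.9 in SH3 (1.71 ± 0.10, adjusted p = 0.000288). CSF2, the granulocyte-macrophage factor, rose in SH1 (2.37 ± 0.34, adjusted p = 0.013), from 4.04 ± 1.02 to 23.3 ± 5.47, and was at 8.10 ± 1.09 in SH3 (adjusted p = 0.479). The complement component C3 rose in SH1 (2.78 ± 0.21, adjusted p = 0.000876) and was lower in SH3 than in SH1 (-3.12 ± 0.22, adjusted p = 0.000811). SOD2, the mitochondrial superoxide dismutase and a known NF-kB target, rose in SH1 (1.08 ± 0.20, adjusted p = 0.0405), and the heme-degrading enzyme gene HMOX1 rose in SH3 (1.69 ± 0.18, adjusted p = 0.00984). Without control 1 and SH1 1, CSF3 (adjusted p = 0.00687 in SH1 and 0.00642 in SH3), CSF2 (0.0461), C3 (0.00319 and 0.0014) and HMOX1 (0.0123) kept these calls.

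In edgeR the SOD2 call was lost without control 1, 2 or 3, SH1 1, 2 or 3 or SH3 2 (adjusted p 0.053 to 0.139), with the replicate number as a block (0.0927), on single transcripts (0.443) and in the other 7 libraries (0.226). That of CSF2 was lost without control 2 (0.0517) or SH1 2 (0.0676), with only the groups compared (0.077) and on single transcripts (0.515), and that of HMOX1 without SH3 1 (0.0524) or SH3 2 (0.0519) and with only the groups compared (0.0564).

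**Figure D5:**
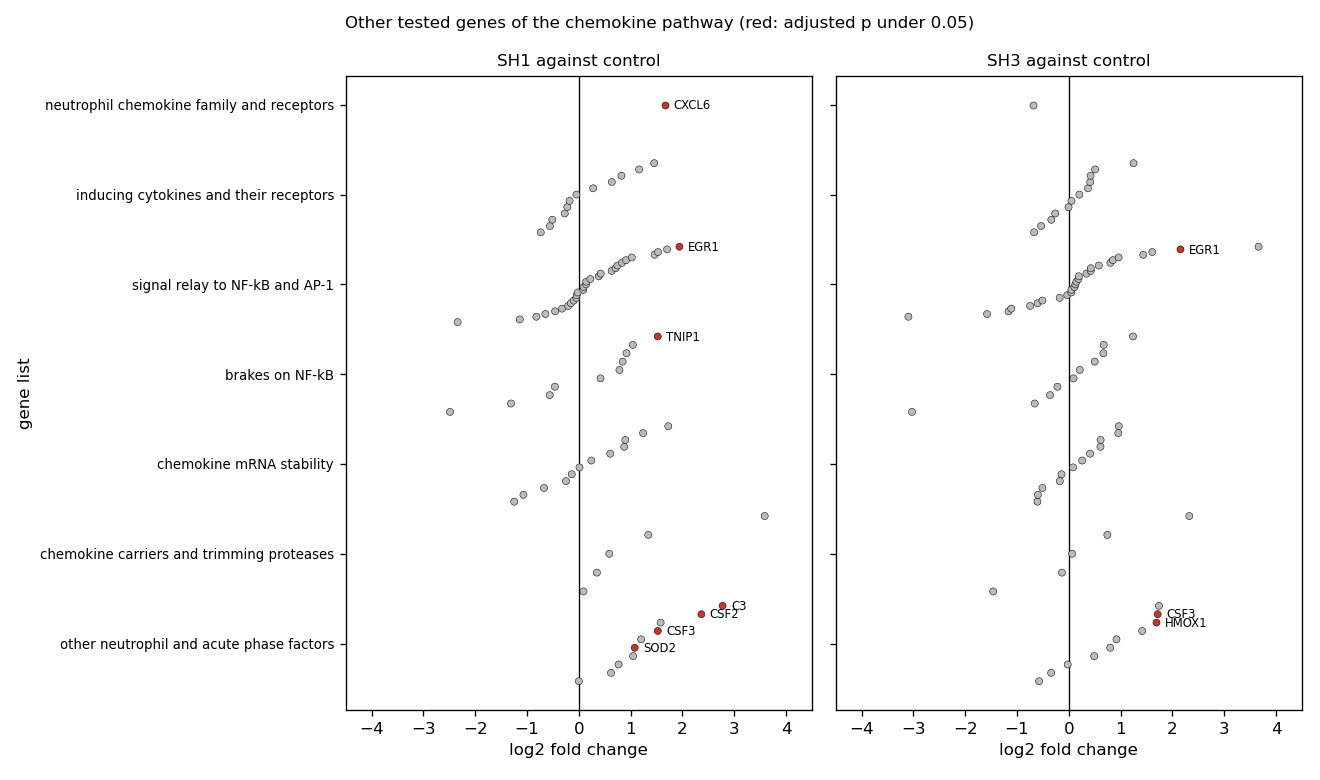
Log2 fold changes (x axis) of the other tested pathway genes, 1 point per gene and 1 row per list (ordered by size within a list). The left panel is SH1 against control and the right panel SH3 against control. The axis range leaves out TNF in both panels (4.948 and 5.755), and TRAF2 (-6.408) and TRAF3 (-5.429) in the right panel. Red points, named, had an adjusted p under 0.05 in edgeR: 7 in SH1 and 3 in SH3, all above 0.

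The genes whose levels followed each chemokine most closely over the 9 libraries were taken by Pearson correlation of log2 CPM among 3904 genes with a mean of at least 1 FPKM. For CXCL1 they were GDA, guanine deaminase (r = 0.98), TNC, the matrix protein tenascin C (0.98), the transcription factor gene SALL4 (0.97) and the potassium channel gene KCNK3 (0.96). For CXCL5 they were GDA again (0.97), ERO1B, an oxidase of the endoplasmic reticulum (0.96), the zinc transporter gene SLC39A9 (0.95) and KYNU, kynureninase (0.95). For CXCL8 they were MBNL1, a splicing regulator (0.97), ZNF772 (0.96), SLC39A9 (0.93) and CEP57L1 (0.93). GDA had a mean of 0.383 ± 0.150 FPKM in control, 12.2 ± 1.64 in SH1 and 5.25 ± 0.629 in SH3. CXCL1, CXCL5 and CXCL8 had the same order of group means. GDA, SALL4, ERO1B and CEP57L1 had control means under 1 FPKM and reached the limit of 1 FPKM through SH1 and SH3.

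Among the chemokines, CXCL5 stood at place 16 of the genes most like CXCL1 (r = 0.92), and CXCL8 at place 178 (r = 0.72). CXCL5 was at place 6 of those most like CXCL8 (r = 0.91). The libraries share groups and the selection of the table, so these correlations describe the 9 libraries and carry no p.

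Markers of other cells were looked at because leukocytes, fibroblasts and endothelial cells also make these chemokines. Of 15 leukocyte markers 2 are in the table, CD68 and LAPTM5, with a summed level of 8.01 to 12.7 FPKM in control, 14.4 to 19.0 in SH1 and 12.7 to 14.1 in SH3. LAPTM5 alone, the more specific of them, was at 0.170 to 0.200 FPKM in control, 0.950 to 1.28 in SH1 and 0 to 0.05 in SH3. Of 9 fibroblast markers 2 are in the table, PDGFRB and ACTA2, at 1.05 to 4.30, 0.340 to 0.940 and 0.300 to 2.18 FPKM summed, and of 7 endothelial markers 0. The part of other cells in the chemokine levels was not tested.

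Of 18 markers of renal tubule and clear cell carcinoma 5 are in the table, PAX8, LHX1, KRT19, CDH6 and MME, summing to 75.3 to 97.6 FPKM in control, 23.6 to 28.6 in SH1 and 63.7 to 77.0 in SH3. Most of this was keratin 19 (KRT19), which fell in SH1 (-2.32 ± 0.20, adjusted p = 0.00134, edgeR) and was higher in SH3 than in SH1 (1.86 ± 0.19, adjusted p = 0.00344). Without control 1 and SH1 1 these were -2.27 and 1.70 (adjusted p = 0.0106 and 0.0173). PAX8, a lineage factor of kidney epithelium, was at 2.26 ± 0.820, 5.42 ± 1.13 and 5.30 ± 4.04 FPKM. CDH6, a cadherin of the proximal tubule, fell in the average of both groups (-2.41, adjusted p = 0.0246), and this call was lost in 13 of 19 alternatives, among them each of the 9 single libraries left out (adjusted p 0.0581 to 0.12).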

How the data were processed

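Total RNA of 9 libraries of Caki-1 cells was sequenced, and the authors deposited 1 table with 4 values per transcript and library. Per the file headers these are FPKM, TPM, an estimated count, 65.1% of them not whole, and a normalized count (a linear signal, not used for results). The submitters' processing notes name the mouse build mm10, whereas 20900 transcripts (99.957%) carry gene numbers of the human RefSeq table, so the values were read as human. The aligner and counter are not given in the sources used here. Libraries were grouped by their titles, and 0 value columns were left unassigned.

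Estimated counts were summed per gene number, rounded and tested by quasi-likelihood in edgeR 4.0.16 under R 4.3.3, in 1 fit of the 9 libraries with a mean per group, TMM scaling, filterByExpr (minimum count 10) and robust dispersions. P-values were adjusted by Benjamini-Hochberg over the 6398 genes tested, with a threshold of 0.05. The SE is the log2 fold change over the square root of F. The code was tested on simulated data. Levels are FPKM as deposited, summed per gene.

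The members and lists were chosen with earlier results of these data known. Named are the 3 chemokines, list genes past the threshold in any comparison, up to 4 of the most abundant tested genes per list, and the 4 genes most like each chemokine (log2 CPM, prior count 2). Genes of a list outside the table were not analysed. Alternatives were DESeq2 1.42.0 (size factors, Wald test), no TMM, no filter, a mean of 5 CPM, limma-trend (limma 3.58.1) on log2 of FPKM plus 1 or 0.1, only the groups compared, a replicate block, single transcripts, and libraries left out. No pair of libraries was identical (0 pairs), and pairs within a group differed by more than sampling noise (chi-square of 34.5 to 56.6 per degree of freedom).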

Additional observations from a re-analysis of the deposited data

Results flagged for a closer look

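The effects of SH1 and SH3 differed in the edgeR test of SH3 against SH1 for 3 of the named genes that are not CXCL1, CXCL5 or CXCL8. The log2 difference was -2.35 for CXCL6 (adjusted p = 0.00663), -3.12 for C3 (adjusted p = 0.000811) and 1.86 for KRT19 (adjusted p = 0.00344).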

How the results depend on the processing

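CXCL1, CXCL5 and CXCL8 kept the sign of every difference under all alternatives run. Against control, SH1 had 0.83 to 1.05 for CXCL1, 1.75 to 2.38 for CXCL5 and 1.08 to 1.92 for CXCL8, and SH3 had 0.66 to 0.80, 1.18 to 1.81 and 0.57 to 1.32 (log2). SH3 against SH1 passed under no alternative (adjusted p 0.237 to 1). With limma-trend on FPKM, CXCL1 moved by more than its replicate SD, to 1.05 in SH1 at both pseudocounts and to 0.92 and 0.93 in the average.

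The counts of other pathway genes called (7 in SH1, 3 in SH3, 5 in the average, 2 in SH3 against SH1) became 14, 7, 14 and 11 with DESeq2. In SH1 the count was 4 with only the groups compared, 4 with single transcripts and 4 in the other 7 libraries, and in the average 3 in the other 7. SH3 against SH1 gave 5 and 4 with limma-trend and 1 with single transcripts. Leaving out 1 library gave 3 to 6, 2 to 3, 2 to 5 and 2 to 3. Fitting only the groups compared was not run for the average, which uses all groups.

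All genes called numbered 137 in SH1, 26 in SH3, 71 in the average and 87 in SH3 against SH1. DESeq2 called 460, 258, 360 and 406, and the other 7 libraries 57, 7, 21 and 56. Single transcripts gave 22, 5, 20 and 15 genes, and only the groups compared 47 and 8 against control and 54 in SH3 against SH1. Limma-trend gave 63 and 56 in SH3 and 142 and 141 in SH3 against SH1. Leaving out 1 library gave 59 to 110, 11 to 25, 27 to 59 and 32 to 92. The cause was not tested.

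Over all tested genes, deviations from the group means in same-numbered samples had correlations of -0.0652 to 0.076. Between SH1 and SH3 each sample correlated best with its own number (0.0333 to 0.076), which did not hold between control and either group. CXCL5 itself was highest in library 1 of control, SH1 and SH3 (2.92, 10.8 and 6.44 FPKM). So were CXCL8 (15.8, 46.9 and 21.1) and CXCL6 (8.55, 25.3 and 4.32). CXCL1 was highest in library 1 of SH1 and SH3 (435 and 358) but in library 2 of control (207). Whether libraries of the same number share a source was not tested. With the replicate block all genes called were 88, 12, 39 and 39, and pathway genes 6, 3, 4 and 2. CXCL1, CXCL5 and CXCL8 then had 0.89 ± 0.08, 2.06 ± 0.27 and 1.44 ± 0.35 in SH1. In SH3 they had 0.72 ± 0.08, 1.49 ± 0.27 and 0.94 ± 0.35. The main fit had 0.85 ± 0.46 for CXCL8 in SH3. The SE of that CXCL8 difference was thus smaller with the block, which rests on the replicate numbers alone. The genes were chosen on this comparison, so nothing is read from 2 SE either side leaving out 0 with the block. For CXCL5 the spread between controls (43.5%) exceeded the counting error at its lowest count (12.6%). The part of sequencing depth in this spread was not tested.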
